A study of Mus musculus with 20 samples.

Results

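A set of 55 genes that carry out or prepare DNA replication was followed in mouse mammary tumours under oestrogen deprivation, PD-1 blockade, both or neither. The genes were listed by the step of replication they serve. For each symbol the deposited transcript with the highest total over the 20 libraries was kept, and a gene counted as measured if its normalised count was 10 or more in 5 or more libraries. All 55 were found and all 55 passed, among 38900 named genes, of which 19826 passed and were tested. The list names genes by their function, but it was chosen with earlier results of these data known. Its counts and medians beside all tested genes are therefore description and not a test of the set.

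Replication starts when the origin recognition complex, Cdc6 and Cdt1 load the MCM ring on chromatin in G1, a step called licensing. Kinases then turn the ring into an active helicase with Cdc45 and the GINS complex, and the polymerases, the clamp PCNA and the enzymes that supply deoxynucleotides copy the DNA. Many of these genes are transcribed at the G1/S boundary under E2F factors, and in oestrogen-dependent breast epithelium oestrogen drives entry into S phase.

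The tumours grew from SSM3, an oestrogen receptor positive mammary tumour cell line, placed in the fourth mammary gland of immunocompetent mice aged 2 to 4 months and left to reach about 150 mm3. The strain is written both as 129S6/SvEv and as 129/SvEv in the labels. The letrozole + anti-PD-1 group had ovaries removed, 1 mg/kg letrozole, an aromatase inhibitor, under the skin each day for 25 days, and 250 µg of anti-PD-1 into the peritoneum on days 3, 5 and 7 after surgery. The letrozole group had ovariectomy and letrozole without the antibody. Mice of the anti-PD-1 group had sham surgery, the ethanol vehicle of letrozole for 25 days and the antibody, and vehicle mice had sham surgery and 5% ethanol in saline. Ovariectomy and letrozole always came together, so their effects cannot be told apart, and "letrozole" below means both. Each group had 5 tumours, which the design text calls biological replicates, all from 1 cell line. RNA of whole tumours was sequenced, so fewer cycling cells and less replication RNA per cell cannot be told apart.

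The libraries held 12452492 to 31294383 reads over 1 transcript a gene (median 24159834), and the 55 genes took 0.266% to 0.406% of them. All 8 luminal epithelial markers were expressed, with a mean log2 level of 14.67 ± 0.08 in letrozole + anti-PD-1 tumours, 14.72 ± 0.10 in letrozole tumours, 14.52 ± 0.13 in anti-PD-1 tumours and 14.49 ± 0.09 in vehicle tumours (SD, n = 5 each). Stromal markers varied more between tumours. The 10 fibroblast markers averaged 9.83 ± 0.73 in letrozole + anti-PD-1, 10.12 ± 0.89 in letrozole, 9.50 ± 1.08 in anti-PD-1 and 9.01 ± 1.82 in vehicle tumours. The 10 macrophage markers averaged 9.36 ± 0.61 in letrozole + anti-PD-1, 9.36 ± 0.45 in letrozole, 8.67 ± 1.04 in anti-PD-1 and 8.48 ± 1.26 in vehicle tumours. No marker of either list was at 0 in all libraries. Vehicle replicate 3 had the highest fibroblast mean (11.36) and macrophage mean (10.46) of all 20 tumours. Anti-PD-1 replicate 1 had the fewest reads, and letrozole + anti-PD-1 replicate 5 had the lowest value of the 20 tumours for 26 of the 55 genes.

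Per kilobase of transcript, the most abundant members on average over the 20 tumours were Mcm7, a subunit of the MCM ring, at 2455 normalised counts, and the clamp Pcna at 2099.7. The ring subunits Mcm2 at 1220.2 and Mcm6 at 1152 followed, with the ribonucleotide reductase subunits Rrm1 at 1220.2 and Rrm2 at 1106. At the low end stood E2f2, an activating E2F factor, at 36.9 per kilobase. The exonuclease gene Exo1 had 50.2, Orc1, a subunit of the origin recognition complex, 68.9 and the GINS subunit Gins3 73.1. These are levels of 1 transcript each, and transcripts of a gene share reads, so the order between genes is approximate. No source used here says how strand was treated, so genes with exon bases under another gene are uncertain: 48.6% for Chaf1a, 20.3% for Ccne2, 19.9% for Slbp, 19.1% for Rfc2, 17.9% for Rfc5, 13.0% for Mcm7 and 11.9% for Orc1, beside those given with their values. For Pole2, a polymerase subunit, 14.4% of exon bases overlap a same-strand gene, so its level is uncertain under any strand setting. Smaller overlaps are not listed. Within groups the members' pooled SD on the log2 scale had a median of 0.24, from 0.11 to 0.50 (E2f2). The median over all tested genes was 0.376. The tested genes include some near the minimum count of 10, while the members' means ran from 140 (Pole2) to 7271 (Mcm7). No set of genes matched for level was compared.

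Part of the set was lower with letrozole. Averaged over both antibody arms (letrozole groups minus groups without letrozole), 10 of 55 members fell at an adjusted p under 0.05 in limma and 0 rose, where 3.72% of all tested genes fell. The 10 were the licensing genes Orc1, Cdt1, Mcm3 and Mcm5, the helicase factor Mcm10, the clamp loader Rfc4, the primase Prim1, the reductase Rrm1, the cyclin Ccne1 and the nuclease Exo1. The falls were moderate, with log2 differences of −0.62 (Orc1) to −0.26 (Prim1). The median over all 55 was −0.23, against 0.03 over all tested genes, and 52 of 55 lay below 0, where 45.9% of all tested genes did. At an unadjusted p under 0.05, 27 of 55 were lower, where 10.6% of all tested genes were. The members varied less within groups than all tested genes (median SD 0.24 against 0.376). No set matched for level was compared, so these shares are no like-for-like baseline.

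**Figure D1:**
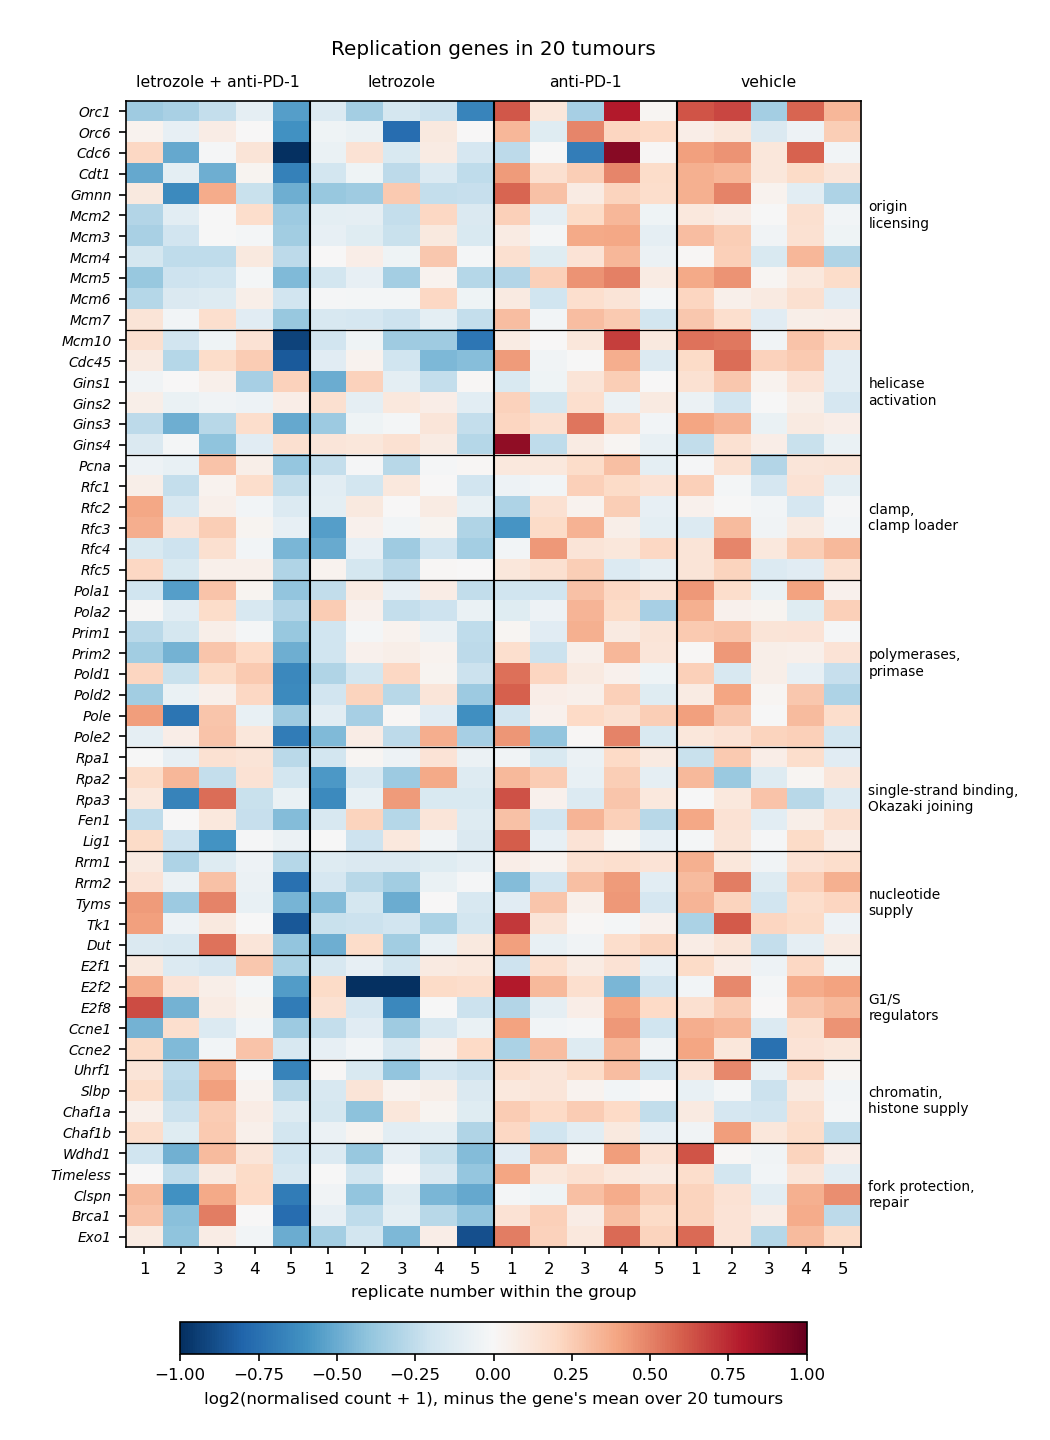
Level of each of the 55 genes (rows, by step) in each of the 20 tumours (columns, by group), as log2(normalised count + 1) minus the gene's mean over the 20 tumours; the colour scale ends at −1 and 1, and values beyond it take the end colour. A tumour had 3 to 37 of 55 genes above their mean (red) in the letrozole + anti-PD-1 group, 8 to 29 in the letrozole group, 27 to 50 in the anti-PD-1 group and 21 to 47 in the vehicle group.

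The comparison within each antibody arm had fewer calls and a similar median. In letrozole against vehicle tumours, 1 of 55 members was called lower (Rfc4), where 0.550% of all tested genes were, 17 were lower at an unadjusted p under 0.05 (6.50% of all tested genes), and the median was −0.22. In letrozole + anti-PD-1 against anti-PD-1 tumours, 1 of 55 was called lower (Cdt1; 0.595% of all tested genes), 12 were lower at an unadjusted p under 0.05 (6.66%), and the median was −0.22. These comparisons share no tumour. Of the 55 members, 48 (87.3%) lay below 0 in both, 1 (Rfc2) above 0 in both and 6 had opposite signs; over all tested genes 31.2% lay below 0 in both. In letrozole + anti-PD-1 against vehicle tumours, 1 of 55 was called lower (Cdt1, −0.57, SE 0.12, adjusted p = 0.0169, limma; 0.721% of all tested genes) and the median was −0.21.

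**Figure D2:**
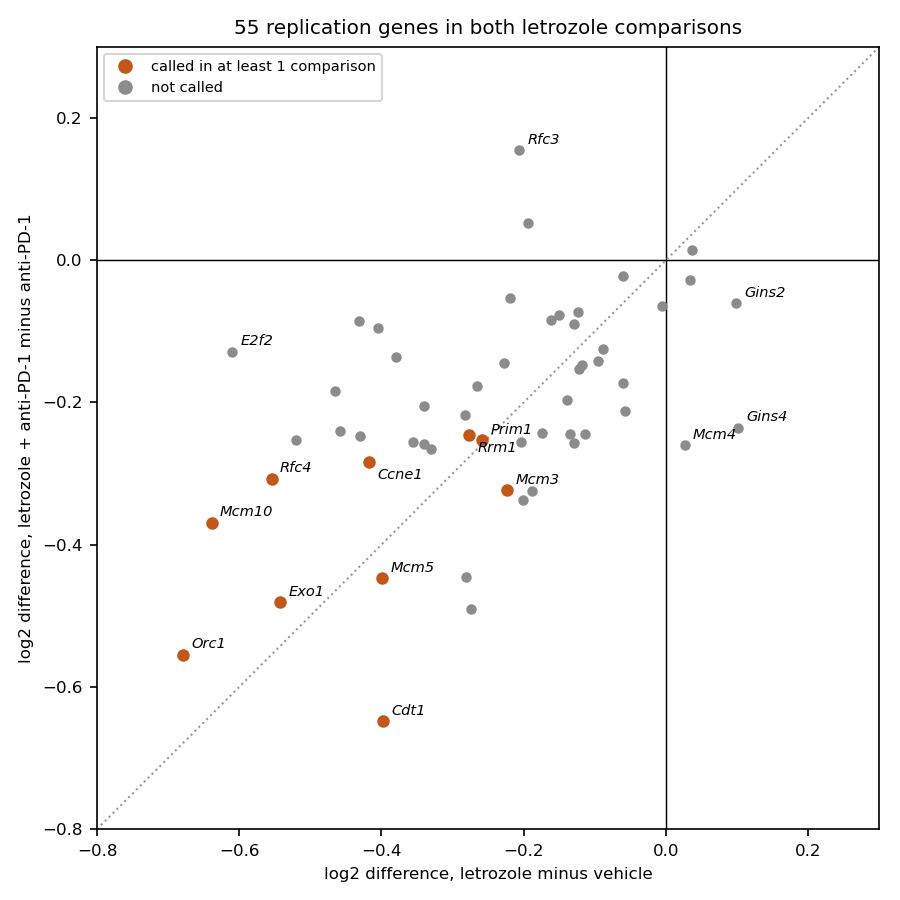
Each point is 1 of the 55 genes: the x axis gives the log2 difference letrozole minus vehicle and the y axis letrozole + anti-PD-1 minus anti-PD-1, with orange for the 10 genes called in at least 1 comparison. Of the 55 points, 48 lie in the lower left quadrant, where both differences are below 0; the dotted line marks equal differences.

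Single tumours weighed on the counts in single arms. The letrozole against vehicle count was 5 without vehicle replicate 3, the tumour with the highest stromal marker means, where 1.73% of all genes then tested were called lower. It was 0 without any 1 of 13 other libraries (letrozole + anti-PD-1 replicates 2 and 4, letrozole replicates 1, 3, 4 and 5, anti-PD-1 replicates 3, 4 and 5 and vehicle replicates 1, 2, 4 and 5). The letrozole + anti-PD-1 against anti-PD-1 count was 2 without anti-PD-1 replicate 1, and its median was −0.10 without letrozole + anti-PD-1 replicate 5. Against vehicle, the letrozole + anti-PD-1 count was 4 without vehicle replicate 3 (1.97% of all genes), 2 without anti-PD-1 replicate 1 and 0 without any 1 of 5 others (letrozole + anti-PD-1 replicates 1, 3 and 5 and vehicle replicates 1 and 2), and its median was −0.12 without letrozole + anti-PD-1 replicate 5. Averaged over both arms the count was 6 without vehicle replicate 1, vehicle replicate 2, anti-PD-1 replicate 4 or letrozole replicate 5 and 14 without vehicle replicate 3 (5.39% of all genes). Shares over all genes are given only for the runs without vehicle replicate 3, so the other counts lack that baseline. Orc1, Cdt1, Mcm5, Rfc4, Rrm1 and Exo1 were called in all 34 settings tried for the averaged contrast, the reported one included. Marker lists of other cells had medians above 0 in the averaged contrast, and none of their markers was called. The median was 1.81 for skeletal muscle (7 of 8 markers tested, all 7 above 0, 3 higher at an unadjusted p under 0.05), 1.19 for T and NK cells (6 of 10 tested, 5 above 0, 1 unadjusted) and 0.95 for B and plasma cells (2 of 6 tested, 1 unadjusted). It was 0.89 for adipocytes (6 of 6 tested, 5 above 0, 0 unadjusted), 0.87 for fibroblasts (10 of 10 tested, 9 above 0, 2 unadjusted higher and 1 lower), 0.76 for macrophages (10 of 10 tested and above 0, 7 unadjusted) and 0.39 for endothelial cells (6 of 6 tested and above 0, 1 unadjusted). Luminal markers had 0.15 over 8 genes, 2 of them called higher. The share of all tested genes that were higher is not given beside these marker counts. Summed fibroblast markers ran from 12326 to 46423 in letrozole + anti-PD-1, 9451 to 76911 in letrozole, 6044 to 42786 in anti-PD-1 and 2568 to 67419.8 normalised counts in vehicle tumours. Summed macrophage markers ran from 5710.2 to 13573 in letrozole + anti-PD-1, 6720.3 to 13622 in letrozole, 2645 to 10442 in anti-PD-1 and 1846 to 19115 in vehicle tumours. Summed skeletal muscle markers ran from 32.1 to 1280.3 in letrozole + anti-PD-1, 41.5 to 1065 in letrozole, 28.8 to 163 in anti-PD-1 and 30.9 to 70.2 in vehicle tumours, and summed T and NK markers from 91.3 to 334 in letrozole + anti-PD-1, 86.2 to 281 in letrozole, 79.3 to 309 in anti-PD-1 and 49.5 to 186 in vehicle tumours. The part of these shifts in the members' values was not tested.

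**Figure D3:**
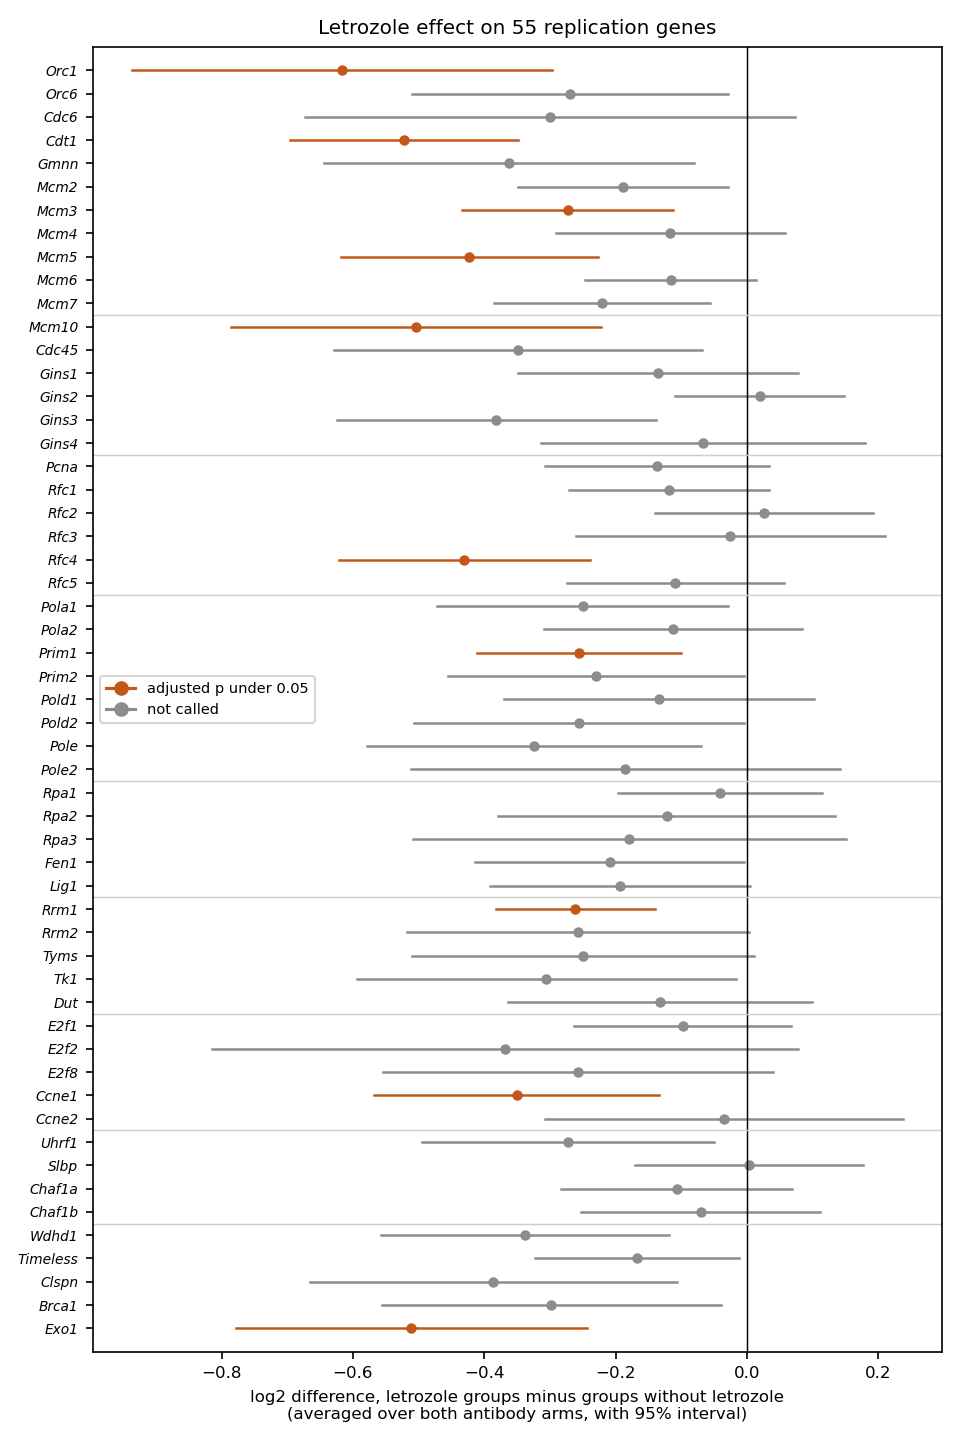
Log2 difference of each of the 55 genes with letrozole, averaged over both antibody arms, with its 95% interval from limma; grey lines part the steps of replication, and orange marks the 10 genes with an adjusted p under 0.05. Of the 55 points, 52 lie left of 0.

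Among the 11 licensing genes, 4 fell with letrozole in the averaged contrast and all 11 lay below 0 (median −0.27). Orc1 (ENSMUST00000102744, chromosome 4) encodes the large ATPase subunit of the complex that marks origins. Orc1 had 179.9, 156, 175, 171 and 125 normalised counts in letrozole tumours, against 306, 315, 156, 297 and 249.9 in vehicle tumours. With the antibody, Orc1 had 154, 158, 168, 186 and 135 in letrozole + anti-PD-1 tumours, against 305, 214, 157, 343 and 200.3 in anti-PD-1 tumours. All 10 tumours with letrozole lay at or below 186, but vehicle replicate 3 and anti-PD-1 replicate 3 were as low, so the groups overlapped in each arm. The averaged log2 difference was −0.62 (SE 0.15, adjusted p = 0.0185, limma), a level 1.53-fold lower with letrozole.

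Cdt1 (ENSMUST00000212967, chromosome 8, a transcript annotated with a retained intron) encodes the factor that brings the MCM ring to the origin complex. Cdt1 had 1189.6, 1309, 1126, 1227 and 1129.8 normalised counts in letrozole tumours, against 1725, 1694, 1462, 1538 and 1466 in vehicle tumours. With the antibody, Cdt1 had 948, 1262, 961, 1378 and 844 in letrozole + anti-PD-1 tumours, against 1813, 1507, 1599, 1894 and 1529.9 in anti-PD-1 tumours. Every tumour with letrozole was below every tumour without it, in both arms. Cdt1 was 1 of 5 members whose letrozole and vehicle values did not overlap, with Mcm10, Rfc4, Rrm1 and Wdhd1, where 1.96% of all tested genes lay lower without overlap. It was 1 of 2, with Exo1, whose letrozole + anti-PD-1 and anti-PD-1 values did not overlap, where 1.47% did. The averaged difference was −0.52 (SE 0.08, adjusted p = 7.14e-04, limma), with −0.40 against vehicle (adjusted p = 0.120) and −0.65 against anti-PD-1 (adjusted p = 0.00896). With these 2 groups fitted alone, the adjusted p of the last was 0.0952.

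Mcm5 (ENSMUST00000164309, chromosome 8) is part of the ring. Mcm5 had 2113, 2277, 1901, 2461 and 1971 normalised counts in letrozole tumours, against 3127, 3287, 2439, 2587 and 2726 in vehicle tumours. With the antibody, Mcm5 had 1849, 2079, 2091, 2370.1 and 1767 in letrozole + anti-PD-1 tumours, against 1961, 2840.4, 3289.9, 3404 and 2546 in anti-PD-1 tumours. Anti-PD-1 replicate 1 was the 1 anti-PD-1 tumour inside the letrozole + anti-PD-1 range, and the highest letrozole tumour exceeded the lowest vehicle tumour by a small margin. Mcm5 fell by 0.42 on the log2 scale over both arms (SE 0.09, adjusted p = 0.00946, limma). Mcm3 (ENSMUST00000185296, chromosome 1, a transcript annotated with a retained intron) encodes another ring subunit. Mcm3 had 3201, 3107, 2893, 3612 and 3036 normalised counts in letrozole tumours, against 4181, 4017, 3302, 3765 and 3279 in vehicle tumours. With the antibody, Mcm3 had 2699.8, 2957, 3379, 3337 and 2664 in letrozole + anti-PD-1 tumours, against 3579, 3330.3, 4393, 4431 and 3173 in anti-PD-1 tumours. The ranges overlapped in both arms. Its averaged difference was −0.27 (SE 0.08, adjusted p = 0.0373, limma), and the call was lost, with adjusted p-values of 0.0527 to 0.0750, without any 1 of 12 libraries (letrozole + anti-PD-1 replicates 1, 2 and 5, letrozole replicates 1, 2, 3 and 5, anti-PD-1 replicates 3 and 4 and vehicle replicates 1, 2 and 4).

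The other ring subunits were not called. Mcm6 was the licensing gene nearest to 0 (−0.12, 95% interval −0.25 to 0.01). Mcm6 had 4945, 4933, 4916, 5748 and 4839 normalised counts in letrozole tumours, against 5799, 5173, 5313, 5586 and 4621 in vehicle tumours. With the antibody, Mcm6 had 4106, 4525, 4577, 5188 and 4368 in letrozole + anti-PD-1 tumours, against 5312, 4352, 5618, 5462 and 4936 in anti-PD-1 tumours. Letrozole replicate 4 stood above the other 4 letrozole tumours, and the groups overlapped. Mcm4 had 2702, 2826, 2614, 3251 and 2658 in letrozole tumours, against 2725, 3182, 2429, 3401 and 2197 in vehicle tumours. With the antibody, Mcm4 had 2388, 2260.2, 2262, 2896 and 2247 in letrozole + anti-PD-1 tumours, against 3012, 2484, 2961, 3401 and 2596 in anti-PD-1 tumours. Letrozole values lay inside the vehicle range, while 4 of 5 letrozole + anti-PD-1 tumours lay below all anti-PD-1 tumours (0.03 and −0.26 on the log2 scale, neither called). Mcm2 (−0.19), Mcm7 (−0.22), Orc6 (−0.27), the loading factor Cdc6 (−0.30) and Gmnn (−0.36), whose product geminin binds and inhibits Cdt1, had averaged differences below 0 that did not pass the adjusted threshold.

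Transcription of many replication genes is linked to E2F factors in textbooks. Promoter stretches are shown for the called members that held E2F-type letters, so a match in each stretch follows from this choice. Windows from 250 bases before to 50 after each RefSeq gene start (GRCm38.p6) were searched on both strands for the E2F-type letters TTTCCCGC, TTTCGCGC, TTTGCCGC and TTTGGCGC. Of the 55 members, 45 had a window, and 16 of these (35.6%) held at least 1 match, against 4.28% of tested genes with a window and 2.61% of all genes with one. Orc1, Cdt1, Mcm3 and Mcm5 were the 4 called members with a match, of 9 called members with a window, and 12 of 36 members not called also held one. The stretches below come from RefSeq and read 5′ to 3′ on the gene's strand, with the E2F-type letters in capitals. Orc1 is chr4:108579334-108579453 on the plus strand and its match begins 27 bases before the start. Mcm5 is chr8:75109302-75109421 on the plus strand, with matches that begin 153 and 149 bases before the start and overlap, 1 on each strand. For Cdt1 (chr8:122568035-122568064, plus strand) the match begins at base 33 from the start, and for Mcm3 (chr1:20820266-20820295, minus strand) matches begin at bases 20 and 39. The bases shortly after the Mcm5 start lie in no GENCODE vM21 transcript of that gene, unlike those of Orc1, Cdt1 and Mcm3, so the distance from these letters to the start of the measured Mcm5 transcript is not known.
Orc1: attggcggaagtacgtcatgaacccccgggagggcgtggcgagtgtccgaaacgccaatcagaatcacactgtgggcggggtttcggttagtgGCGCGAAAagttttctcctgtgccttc
Mcm5: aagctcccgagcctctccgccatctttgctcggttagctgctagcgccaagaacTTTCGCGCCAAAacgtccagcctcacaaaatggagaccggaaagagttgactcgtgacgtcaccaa
Cdt1: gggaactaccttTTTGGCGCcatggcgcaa
Mcm3: tgGCGGGAAAacttgggaagtTTTGGCGCc
A match of letters does not show that a factor binds there in these tumours.

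The CCAAT box was searched in the same windows on both strands: 28 of 45 members (62.2%) held it, against 41.9% of tested genes with a window. Among 22 genes of G2 and mitosis, CCAAT stood in 17 of 19 genes with a window (89.5%) and E2F-type letters in 1 of 19 (5.26%). Other replication genes held E2F-type letters in 11 of 36 (30.6%).

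Of 6 helicase activation genes, 1 fell in the averaged contrast (median −0.24). Mcm10 (ENSMUST00000102985, chromosome 2) encodes a factor needed to open the loaded helicase. Mcm10 had 474, 524, 423, 423 and 327 normalised counts in letrozole tumours, against 787, 779, 529, 660.2 and 625 in vehicle tumours. With the antibody, Mcm10 had 606, 474, 526, 597 and 284 in letrozole + anti-PD-1 tumours, against 574, 541, 587, 874 and 579.7 in anti-PD-1 tumours. Letrozole and vehicle tumours did not overlap, by a margin of a few counts, and with the antibody 3 of 5 letrozole tumours lay below all anti-PD-1 tumours. The averaged difference was −0.50 (SE 0.14, adjusted p = 0.0278, limma). It passed no longer without letrozole replicate 5, anti-PD-1 replicate 4 or vehicle replicates 1 or 2 (adjusted p = 0.0526 to 0.0582). Gins2, a subunit of the GINS complex that holds the helicase together, moved least (0.02, 95% interval −0.11 to 0.15). Gins2 had 1607, 1352, 1554, 1508 and 1341 normalised counts in letrozole tumours, against 1387, 1265, 1436, 1499 and 1286 in vehicle tumours. With the antibody, Gins2 had 1498, 1373, 1406, 1392 and 1506 in letrozole + anti-PD-1 tumours, against 1692, 1278, 1621, 1388 and 1537 in anti-PD-1 tumours. Its groups overlapped throughout, and 70.7% of its exon bases lie under another gene on the opposite strand, so its level is uncertain. The other 4 had averaged differences of −0.38 (Gins3), −0.35 (Cdc45), −0.14 (Gins1) and −0.07 (Gins4), none called.

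Among the 6 clamp and clamp loader genes, 1 fell, Rfc4, and the median was −0.11. Rfc4 (ENSMUST00000023598, chromosome 16) encodes a small subunit of replication factor C, which opens PCNA and closes it round DNA. Rfc4 had 279, 374, 309, 346 and 312 normalised counts in letrozole tumours, against 434, 556, 427, 469.9 and 496 in vehicle tumours. With the antibody, Rfc4 had 356, 343, 443, 389 and 288 in letrozole + anti-PD-1 tumours, against 388, 536, 432, 428 and 458 in anti-PD-1 tumours. Every letrozole tumour was below every vehicle tumour, while letrozole + anti-PD-1 replicate 3 exceeded 3 anti-PD-1 tumours. Rfc4 fell in letrozole against vehicle tumours (−0.55, SE 0.13, adjusted p = 0.0445, limma) and over both arms (−0.43, adjusted p = 0.00723). The first call was lost in 17 of 34 alternatives, with adjusted p-values of up to 0.126 when 1 library was left out, as listed above for the count; 13.4% of its exon bases lie under Eif4a2 on the opposite strand. Pcna itself had −0.14 (95% interval −0.31 to 0.03).

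Rfc2, another loader subunit, was the 1 member above 0 in both arms (0.04 and 0.01, neither called). Rfc2 had 752, 863, 809.5, 850.2 and 766 normalised counts in letrozole tumours, against 829.7, 801, 789, 718 and 797 in vehicle tumours. With the antibody, Rfc2 had 1051, 719.9, 835, 790.3 and 734 in letrozole + anti-PD-1 tumours, against 650.2, 895, 826, 957 and 759 in anti-PD-1 tumours. Letrozole + anti-PD-1 replicate 1 was the highest of all 20 tumours for this gene. Rfc3, also read from a retained intron transcript, had opposite signs in the arms (−0.21 and 0.16). Rfc3 had 344, 518, 493, 512 and 407 normalised counts in letrozole tumours, against 457, 627, 492, 536 and 495 in vehicle tumours. With the antibody, Rfc3 had 648, 552, 596, 513 and 476 in letrozole + anti-PD-1 tumours, against 335, 574, 642, 524 and 471 in anti-PD-1 tumours. Anti-PD-1 replicate 1 and letrozole replicate 1 were its lowest tumours. The difference between the arms, 0.36 with a 95% interval of −0.11 to 0.83, did not pass in the interaction test in limma. Rfc1 and Rfc5 had −0.12 and −0.11 over both arms.

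Of 8 polymerase and primase genes, 1 fell over both arms and all 8 lay below 0 (median −0.24). Prim1 (ENSMUST00000133285, chromosome 10, a transcript annotated with a retained intron) encodes the subunit of primase that makes RNA primers. Prim1 had 717, 812, 840.2, 791 and 689 normalised counts in letrozole tumours, against 987, 998, 901, 902 and 817 in vehicle tumours. With the antibody, Prim1 had 682, 727, 857, 811 and 632 in letrozole + anti-PD-1 tumours, against 834, 761, 1052, 873 and 898 in anti-PD-1 tumours. The highest letrozole tumour exceeded the lowest vehicle tumour, and the ranges overlapped more with the antibody. Its difference was −0.26 (SE 0.07, adjusted p = 0.0425, limma), and the call was lost at adjusted p-values of 0.0557 to 0.0852 without any 1 of 12 libraries (letrozole + anti-PD-1 replicates 1, 2 and 5, letrozole replicates 1, 4 and 5, anti-PD-1 replicates 3, 4 and 5 and vehicle replicates 1, 2 and 4). Pole, the catalytic subunit of the leading strand polymerase, had the most negative value of the step, −0.32, and was not called (adjusted p = 0.114, limma). Pole had 1010.5, 865, 1097, 1005 and 709 normalised counts in letrozole tumours, against 1444, 1315, 1086, 1354 and 1230.4 in vehicle tumours. With the antibody, Pole had 1455, 657, 1317, 1035 and 849 in letrozole + anti-PD-1 tumours, against 953, 1122, 1248, 1219 and 1288 in anti-PD-1 tumours. Letrozole + anti-PD-1 tumours spanned the lowest and the highest Pole values of all 20. Pola2, a subunit of polymerase alpha, was nearest to 0 (−0.11, 95% interval −0.31 to 0.08). Pola2 had 1253, 1081, 889, 911 and 1001 normalised counts in letrozole tumours, against 1344, 1078, 1067, 964 and 1239.8 in vehicle tumours. With the antibody, Pola2 had 1058, 977, 1192, 941 and 856 in letrozole + anti-PD-1 tumours, against 964, 1014, 1327, 1199 and 833 in anti-PD-1 tumours. The groups overlapped in both arms. The remaining 5 had averaged differences from −0.26 (Pold2) to −0.13 (Pold1), both subunits of the lagging strand polymerase.

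None of the 5 genes of single-strand binding and Okazaki fragment joining was called (median −0.18). At an unadjusted p under 0.05, 1 was lower, where 10.6% of all tested genes were. This member was Fen1, the flap endonuclease that trims fragments (−0.21, unadjusted p = 0.0453, limma). Fen1 had 1478, 1922, 1356, 1798 and 1506 normalised counts in letrozole tumours, against 2161, 1820.0, 1531, 1718 and 1849 in vehicle tumours. With the antibody, Fen1 had 1382, 1651, 1771, 1406 and 1225 in letrozole + anti-PD-1 tumours, against 2021, 1447, 2083, 1947 and 1365 in anti-PD-1 tumours. The ranges overlapped, and 83.9% of its exon bases lie under other genes on the opposite strand. Rpa1, the large subunit of the single-strand binding protein, was nearest to 0 (−0.04, 95% interval −0.20 to 0.11). Rpa1 had 1578, 1819, 1732, 1977 and 1725 normalised counts in letrozole tumours, against 1537, 2156, 1877, 2027 and 1656 in vehicle tumours. With the antibody, Rpa1 had 1789, 1692, 1992, 1959.7 and 1489 in letrozole + anti-PD-1 tumours, against 1749, 1614, 1717, 2054 and 1910.0 in anti-PD-1 tumours. Letrozole values lay inside the vehicle range. Rpa2, Rpa3 and the ligase Lig1 had −0.12, −0.18 and −0.19.

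Nucleotide supply had 1 called member of 5, and all 5 lay below 0 (median −0.26). Rrm1 (ENSMUST00000033283, chromosome 7) encodes the large subunit of ribonucleotide reductase, which makes deoxynucleotides. Rrm1 had 4424, 4387, 4386, 4451 and 4557 normalised counts in letrozole tumours, against 6209, 5232, 4734, 5345 and 5470.1 in vehicle tumours. With the antibody, Rrm1 had 5154, 3922, 4432, 4679.8 and 3982 in letrozole + anti-PD-1 tumours, against 5070.5, 4974, 5370.4, 5439 and 5322 in anti-PD-1 tumours. Every letrozole tumour was below every vehicle tumour, and with the antibody 4 of 5 letrozole tumours lay below all anti-PD-1 tumours. The letrozole group was tight, with a mean of 4441 ± 70.6 against 5398 ± 533 in vehicle tumours (SD, n = 5 each). Over both arms Rrm1 fell by 0.26 on the log2 scale (SE 0.06, adjusted p = 0.00972, limma). Its partner Rrm2, the small subunit, had a similar difference of −0.26 with a wider error (SE 0.12, adjusted p = 0.222, limma). Rrm2 had 2115, 1960.5, 1868, 2258 and 2351 normalised counts in letrozole tumours, against 2949, 3380.1, 2167, 2804 and 3029.8 in vehicle tumours. With the antibody, Rrm2 had 2613, 2282, 2904, 2277 and 1415 in letrozole + anti-PD-1 tumours, against 1754, 2081, 2919.9, 3193 and 2199.8 in anti-PD-1 tumours. Letrozole tumours were lower than 4 of 5 vehicle tumours, whereas with the antibody the ranges ran across each other.

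Tk1, the thymidine kinase of the salvage pathway, had the most negative value of the step (−0.31, adjusted p = 0.194, limma) without a call. Tk1 had 534, 539.5, 548, 503 and 551 normalised counts in letrozole tumours, against 503, 958, 727, 713 and 602 in vehicle tumours. With the antibody, Tk1 had 830.0, 604, 669, 622 and 347 in letrozole + anti-PD-1 tumours, against 1023, 685, 631, 618 and 644 in anti-PD-1 tumours. Letrozole tumours clustered below 4 of 5 vehicle tumours, and anti-PD-1 replicate 1 stood far above its group. Dut, the dUTPase that keeps uracil out of DNA, was nearest to 0 (−0.13, 95% interval −0.36 to 0.10). Dut had 1005, 1601, 1104, 1339 and 1503 normalised counts in letrozole tumours, against 1480.0, 1541, 1192, 1320.4 and 1499.9 in vehicle tumours. With the antibody, Dut had 1275, 1256, 2052, 1531 and 1071 in letrozole + anti-PD-1 tumours, against 1866, 1336, 1376, 1588 and 1645 in anti-PD-1 tumours. Its groups overlapped in both arms. Tyms, thymidylate synthase, had −0.25.

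Of 5 G1/S regulators, 1 fell over both arms (median −0.26). Ccne1 (ENSMUST00000108023, chromosome 7) encodes cyclin E1, which activates Cdk2 at S phase entry. Ccne1 had 483, 528, 445, 510.5 and 545 normalised counts in letrozole tumours, against 733, 717, 519, 636 and 777 in vehicle tumours. With the antibody, Ccne1 had 412, 641, 519.8, 559 and 443 in letrozole + anti-PD-1 tumours, against 752, 558, 566, 770.4 and 497 in anti-PD-1 tumours. Vehicle replicate 3 was the 1 vehicle tumour inside the letrozole range. The averaged difference was −0.35 (SE 0.10, adjusted p = 0.0451, limma), and it passed the threshold no longer without any 1 of 15 libraries (letrozole + anti-PD-1 replicates 1, 3 and 5, letrozole replicates 1, 2, 3, 4 and 5, anti-PD-1 replicates 1, 2 and 4 and vehicle replicates 1, 2, 4 and 5; adjusted p = 0.0505 to 0.0888) or with the replicate number as a block (adjusted p = 0.0553). Its paralogue Ccne2 had −0.04 (95% interval −0.31 to 0.24). Ccne2 had 538, 559, 509.7, 585 and 654 normalised counts in letrozole tumours, against 749, 614, 338, 626 and 615 in vehicle tumours. With the antibody, Ccne2 had 648, 418, 558, 693 and 509 in letrozole + anti-PD-1 tumours, against 455, 705, 520.5, 718 and 556 in anti-PD-1 tumours. Vehicle replicate 3 was the lowest of all 20 tumours for Ccne2.

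E2f2 had the most negative averaged value of the regulators, −0.37, and the widest error (SE 0.21, adjusted p = 0.316, limma). E2f2 had 189, 81.2, 63.2, 189.9 and 187 normalised counts in letrozole tumours, against 163, 231, 164, 214 and 219.9 in vehicle tumours. With the antibody, E2f2 had 214, 183, 172, 164 and 112 in letrozole + anti-PD-1 tumours, against 288, 208, 186, 120.3 and 145 in anti-PD-1 tumours. Letrozole replicates 2 and 3 were the lowest of the 20 tumours, and the other 3 letrozole tumours lay in the vehicle range. E2f1, the best known activator of the family, had −0.10, and the repressor E2f8 −0.26.

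None of the 4 genes of chromatin and histone supply was called (median −0.09). Uhrf1, which binds hemimethylated DNA behind the fork, had −0.27 (unadjusted p = 0.0188, adjusted p = 0.130, limma). Uhrf1 had 2968, 2652, 2246, 2619 and 2535 normalised counts in letrozole tumours, against 3250.2, 4114, 2805, 3401 and 2986 in vehicle tumours. With the antibody, Uhrf1 had 3227, 2477, 3762, 2949 and 1856 in letrozole + anti-PD-1 tumours, against 3321, 3214, 3353, 3649 and 2569 in anti-PD-1 tumours. All 5 letrozole tumours lay below 4 of 5 vehicle tumours, and vehicle replicate 3 lay below letrozole replicate 1. Slbp, the stem-loop binding protein of histone mRNA, was at 0.00 (95% interval −0.17 to 0.18). Slbp had 613, 751, 702, 716 and 621 normalised counts in letrozole tumours, against 651, 675, 592, 732 and 672 in vehicle tumours. With the antibody, Slbp had 779, 569, 914, 703 and 569.9 in letrozole + anti-PD-1 tumours, against 737, 744, 704, 673 and 688 in anti-PD-1 tumours. No separation of groups was visible for Slbp. The chromatin assembly subunits Chaf1a and Chaf1b had −0.11 and −0.07.

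The 5 genes of fork protection and repair had a median of −0.34 in the averaged contrast. All 5 were lower at an unadjusted p under 0.05 (10.6% of all tested genes), and 1 passed the adjusted threshold (3.72%). In letrozole against vehicle tumours the median was −0.43, with 3 of 5 lower at an unadjusted p under 0.05 (6.50% of all tested genes). In letrozole + anti-PD-1 against anti-PD-1 tumours it was −0.25, with 1 of 5 lower (6.66%). Exo1 (ENSMUST00000039725, chromosome 1) encodes an exonuclease of mismatch repair and end resection. Exo1 had 298, 333, 278, 396 and 205 normalised counts in letrozole tumours, against 561, 416, 311, 472 and 432 in vehicle tumours. With the antibody, Exo1 had 401, 286, 399.9, 371 and 268 in letrozole + anti-PD-1 tumours, against 540.1, 443, 409, 560.0 and 442 in anti-PD-1 tumours. With the antibody no letrozole tumour reached the lowest anti-PD-1 tumour, while vehicle replicate 3 lay inside the letrozole range. Exo1 fell by 0.51 on the log2 scale over both arms (SE 0.13, adjusted p = 0.0191, limma). Timeless, part of the fork protection complex and likewise read from a retained intron transcript, was nearest to 0 (−0.17, adjusted p = 0.182, limma). Timeless had 1292, 1138, 1302, 1169 and 993 normalised counts in letrozole tumours, against 1463, 1144, 1272, 1406 and 1204 in vehicle tumours. With the antibody, Timeless had 1302, 1084, 1381, 1483 and 1159 in letrozole + anti-PD-1 tumours, against 1707, 1403, 1441, 1394 and 1376 in anti-PD-1 tumours. The ranges overlapped in both arms, and anti-PD-1 replicate 1 stood above all others. Clspn, the checkpoint mediator claspin, had −0.39, Wdhd1, which links polymerase alpha to the helicase, −0.34, and Brca1, of recombination repair, −0.30.

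**Figure D4:**
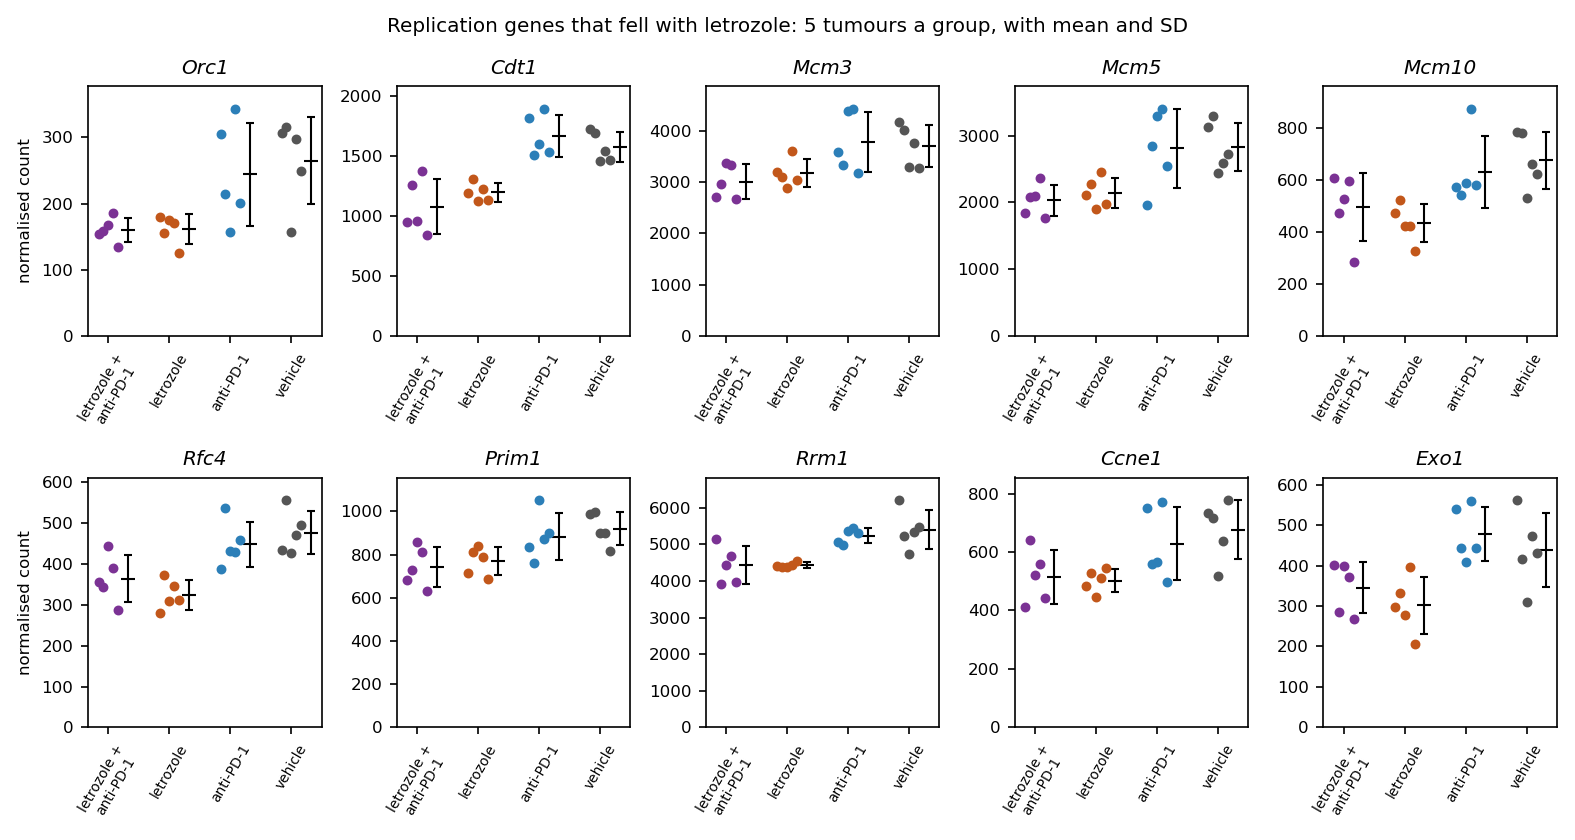
Normalised counts of the 10 genes that fell with letrozole in the averaged contrast, 1 dot a tumour (5 in each of the letrozole + anti-PD-1, letrozole, anti-PD-1 and vehicle groups), with the group mean and SD beside the dots and y axes from 0. For Cdt1 all 10 tumours with letrozole lie below all 10 without it; for Orc1 1 vehicle and 1 anti-PD-1 tumour lie in the letrozole range.

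The antibody was not accompanied by a detectable change of any member. In anti-PD-1 against vehicle tumours, 0 of 55 were called and 0 had an unadjusted p under 0.05, with a median of −0.02 and 27 of 55 above 0; over all tested genes 0 were called (0%), with 267 higher and 270 lower at an unadjusted p under 0.05. In letrozole + anti-PD-1 against letrozole tumours, 0 of 55 were called and 0 had an unadjusted p under 0.05, with a median of 0.04; over all tested genes 0% were called, with 317 higher and 309 lower at an unadjusted p under 0.05. edgeR and DESeq2 on recovered reads also called 0 members in both. The member with the smallest unadjusted p in the comparison against letrozole was Mcm4 (−0.22, 95% interval −0.47 to 0.02). For Cdt1, anti-PD-1 minus vehicle was 0.08 with a 95% interval of −0.17 to 0.32, and for Pcna 0.10 with −0.14 to 0.34. The effect of letrozole did not differ between the antibody arms for any member at the adjusted threshold, nor at an unadjusted p under 0.05 (interaction, 0 of 55, median 0.04); edgeR and DESeq2 called 0 as well. These intervals still allow moderate changes in single genes.

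The mean log2 level of the 55 genes in each tumour was 9.75 ± 0.21 in letrozole + anti-PD-1 tumours, against 9.96 ± 0.10 in anti-PD-1 tumours, and 9.71 ± 0.07 in letrozole tumours, against 9.96 ± 0.11 in vehicle tumours (SD, n = 5 each). Letrozole + anti-PD-1 tumours ranged most widely, from 9.44 in replicate 5 and 9.63 in replicate 2 to 9.94 in replicate 3. Vehicle replicate 3, at 9.81, was the lowest vehicle tumour and below the highest letrozole tumour (9.82).

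Other cell cycle genes were read beside the set in the averaged contrast, where 3.72% of all tested genes fell. Of 44 further replication and S phase genes, 10 fell over both arms and 0 rose (median −0.17), among them Blm, a helicase of recombination (−0.64, SE 0.11, adjusted p = 0.00128, limma), the histone chaperone Asf1b (−0.55, adjusted p = 0.0112), the topoisomerase Top2a (−0.54, adjusted p = 0.0145) and the checkpoint scaffold Topbp1 (−0.28, adjusted p = 0.0154). In the E2F and pocket protein network of 18 genes, 3 fell in limma: E2f4 (−0.42, adjusted p = 0.00177), Tfdp1 (−0.33, adjusted p = 0.00317) and E2f5 (−0.43, adjusted p = 0.0259). In the same list 1 rose, Rb1 (0.65, adjusted p = 0.0376, limma), which encodes the retinoblastoma protein that binds E2F factors. The share of all tested genes that rose is not given here, so the Rb1 call has no baseline beside it. Of 22 genes of G2 and mitosis, 16 fell in the averaged contrast, with a median of −0.54. In letrozole against vehicle tumours 6 were called lower (0.550% of all tested genes) and the median was −0.72. In letrozole + anti-PD-1 against anti-PD-1 tumours 0 were called (0.595% of all tested genes lower) and the median was −0.33. Their interaction was above 0 for all 22 (median 0.48), with 0 called. The difference from the replication genes was not tested. The mean level of these 22 genes was 10.25 ± 0.41 in letrozole + anti-PD-1 tumours, against 10.56 ± 0.15 in anti-PD-1 tumours. It was 9.92 ± 0.34 in letrozole tumours, against 10.68 ± 0.18 in vehicle tumours (SD, n = 5 each).

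**Figure D5:**
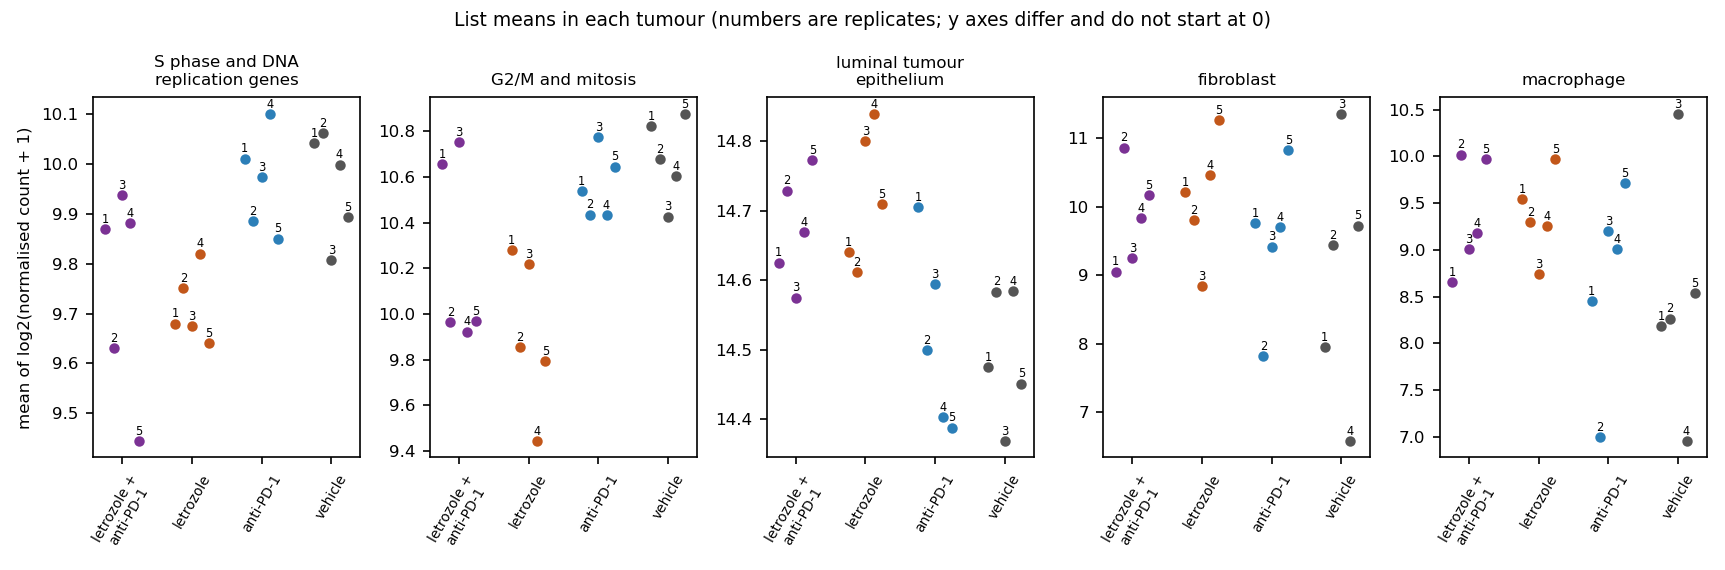
Mean of log2(normalised count + 1) over the genes of 5 lists in each tumour, 1 dot a tumour with its replicate number, by group; y axes differ and do not start at 0. In the first panel letrozole + anti-PD-1 replicate 5 is the lowest of the 20 tumours at 9.44, and in the G2 and mitosis panel letrozole + anti-PD-1 replicates 1 and 3, at 10.66 and 10.75, lie in the range of the vehicle tumours.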

How the data were processed

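Bulk RNA of 20 tumours in 4 groups of 5 was sequenced, from Swift Rapid libraries of 1 µg total RNA per the labels' protocols. STAR 2.7.10a, DESeq2 and the build GRCm39 (mm39) stand in the submitters' processing notes. The read counter, its annotation and strand setting were not given in the sources used here. Normalised signal for 127442 transcripts was deposited by the authors, that is, read counts over a library's size factor. Whole reads could be recovered, with 100% of values whole at a tolerance of 0.001; among counts of 1 to 20, 57.9% to 69.6% were even.

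Gene symbols came from GENCODE vM21 (GRCm38), which named 118871 rows (93.3%); the 8571 unnamed rows held 1.79% to 2.77% of reads, and 79 symbols shared by several genes were left out. Overlaps with other genes use the same annotation. Of the members' transcripts, 48 are annotated as protein coding, 5 as retained intron (Mcm3, Cdt1, Rfc3, Prim1 and Timeless) and 2 as targets of nonsense-mediated decay (Cdc6 and Tyms). The members had a median of 5 transcripts each, whose reads are shared.

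The main test was limma 3.58.1 (R 4.3.3) with a trend on log2(value + 1), a scale that understates changes of low genes, fitted on all 20 libraries (16 residual degrees of freedom), two-sided, with Benjamini-Hochberg adjustment over 19826 genes and a threshold of 0.05. A p-value sets a group difference against the spread between these tumours, which all come from 1 cell line. The fit was also run on simulated data, but the outcome is not given here and no result rests on it. Alternatives were edgeR 4.0.16 and DESeq2 1.42.0 run on those whole reads, other pseudocounts, filters, scalings and transcripts, a replicate block and leaving out each library. Values in every library are given for members past the threshold in any contrast, the most negative and most positive member of each step, and up to 3 with the smallest p in the antibody contrasts. Members and lists were chosen with earlier results of these data known.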

Additional observations from a re-analysis of the deposited data

Results flagged for a closer look

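In 112 groups of 5 tumours (27 genes described in full and the mean of all 55, in each of 4 treatments), the gap between an extreme tumour and its nearest neighbour was set against the group's range. Chance flags about 1 in 20 groups, and 5 of 112 were marked. In letrozole + anti-PD-1 tumours, replicate 4 had 2896 normalised counts of the ring subunit Mcm4, where the other 4 had 2247 to 2388. Letrozole replicate 4 had 5748 of Mcm6, another ring subunit, where the other 4 had 4839 to 4945. For Mcm10, the helicase factor, anti-PD-1 replicate 4 had 874 and the other 4 had 541 to 587. Anti-PD-1 replicate 1 was the library with the fewest reads and the largest share of them in its 10 most abundant genes (12.9%). It had 1023 of the thymidine kinase Tk1 (others 618 to 685) and 1707 of the fork factor Timeless (others 1376 to 1441). No cause was tested.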

How the results depend on the processing

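In each alternative run (33 or 34 a contrast) the median difference of the members kept its sign in the letrozole contrasts. It moved by less than 1 SD between tumours (0.142), which is a loose limit beside medians of this size. For letrozole + anti-PD-1 against anti-PD-1 tumours it was −0.22 as reported and −0.10 without letrozole + anti-PD-1 replicate 5. The calls moved more. In letrozole against vehicle tumours, 1 member was called as reported, 0 with no filter on low values, with quantile normalisation, with each library centred on its median or with the 2 groups alone, 5 with DESeq2 (1.86% of all tested genes lower), and 0 to 5 when 1 library was left out. In letrozole + anti-PD-1 against anti-PD-1 tumours (1 reported), the count was 0 with the 2 groups alone, 2 with DESeq2 (1.46% of all tested genes) and 1 to 2 when 1 library was left out. In letrozole + anti-PD-1 against vehicle tumours (1 reported) it was 0 with the 2 groups alone, 4 with DESeq2 (2.09% of all tested genes) and 0 to 4 when 1 library was left out. Without both vehicle replicate 3 and anti-PD-1 replicate 1, an alternative chosen after seeing the data, these 3 counts were 7, 2 and 4, where 2.48%, 0.702% and 2.63% of all tested genes were called lower. Averaged over both arms, 10 were called as reported, 6 to 14 when 1 library was left out and 7 to 13 otherwise, 12 of them with the protein-coding transcript of each gene, also chosen after seeing the data (5.09% of all tested genes); edgeR gave 9 (3.49%) and DESeq2 12 (5.63%). The cause was not tested. The averaged calls of Mcm3, Prim1 and Ccne1 were also lost with no filter on low values, those of Mcm3 and Prim1 with centring, and those of Mcm3 and Ccne1 with the sum over all transcripts. Prim1 was also lost with TMM factors and with edgeR. Centring moved the median of all tested genes in the averaged contrast to −0.04, against 0.03 as reported. Same-numbered tumours of different groups showed little shared deviation (30 correlations from −0.34 to 0.20, 3 of them over 0.1). Of 20 libraries, 1 correlated best with its own number. The main fit used no replicate block, but these correlations cannot exclude that same-numbered tumours shared a step of handling. With the replicate block, 9 members were called over both arms, 1 in each letrozole comparison and 0 in the antibody contrasts. Counts in the antibody contrasts and the interaction were 0 in every alternative run. Levels of transcripts with shared or overlapping reads limit what a single gene shows.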

Other observations

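The letrozole + anti-PD-1 group was split in its cell cycle genes in a way that the group means do not show. In replicates 1 and 3 the mean log2 level of 22 genes of G2 and mitosis was 10.66 and 10.75, against 9.97, 9.92 and 9.97 in replicates 2, 4 and 5. The replication genes ordered the same tumours otherwise: 9.87 and 9.94 in replicates 1 and 3, and 9.63, 9.88 and 9.44 in replicates 2, 4 and 5, so replicate 4 was high for replication and low for mitosis. The letrozole group was about as wide in its mitotic mean, from 9.44 to 10.28 (SD 0.34), against 9.92 to 10.75 (SD 0.41) in letrozole + anti-PD-1 tumours. A wide mitotic range was therefore not particular to the letrozole + anti-PD-1 group. Letrozole replicate 4 had the highest replication mean of its group (9.82) and the lowest mitotic mean of all 20 tumours (9.44).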
